A study of Mus musculus with 20 samples.

Results

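The interferon-stimulated genes described here are 38 mouse genes whose transcription is induced by interferons. They were taken by symbol from a list and looked up among the 15465 genes with values in the breast cancer (BC) libraries. All 38 had values, and all 38 were among the 14003 genes tested, for which 4 or more of the 8 libraries had to reach a value of 1. The BC tumours were derived from 4T1, a mouse mammary carcinoma line, in orthotopic mouse models, and were sampled as bulk tissue at 28 days. The groups were 4 lung metastases and 4 primary tumours, 1 of each from the same 4 mice, which are numbered 1 to 4 below. Both groups share the 4T1 origin and the time. No treatment is recorded for either group, and the labels used here do not name the host strain. The PDAC libraries of the same series are not described here, because their columns did not follow the gene names of the table.

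Interferons are secreted proteins that bind receptors on nearby cells, where JAK kinases pass the signal to STAT proteins. Type I and type III interferons assemble a complex that holds STAT2 and IRF9 and binds the interferon-stimulated response element (ISRE). Interferon gamma acts through another element, the gamma-activated site. The genes switched on this way sense foreign nucleic acid, block viral replication and raise antigen presentation, and in tumours their transcripts can come from tumour cells, infiltrating leukocytes and stroma. In bulk tissue, fewer cells of a type and less RNA per cell cannot be told apart.

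Promoter sequence was at hand for 28 of the 38 genes, from RefSeq on GRCm38.p6, as 250 bases before to 50 bases after each gene's start. A pair of immunity-related GTPase genes is shown, Igtp and Irgm2, because their windows were the most alike of 3 pairs aligned among Igtp, Irgm2 and Irgm1. Their windows were aligned without gaps at the offset that gave the most identical bases, which favours identity, and 184 of 270 aligned bases (68.1%) were the same. The same procedure gave 34.0% for Igtp and Irgm1 and 31.7% for Irgm2 and Irgm1. The stretches are 80 bases, written 5′ to 3′ on the plus strand, which is the strand of both genes, and capitals mark the 2 bases that differ between them.
Igtp: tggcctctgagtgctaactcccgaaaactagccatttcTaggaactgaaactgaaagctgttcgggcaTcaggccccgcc
Irgm2: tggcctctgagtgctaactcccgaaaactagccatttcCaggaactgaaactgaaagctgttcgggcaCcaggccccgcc

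The Igtp stretch is at chr11:58199476-58199555 and the Irgm2 stretch at chr11:58214867-58214946, and 78 of their 80 bases are identical. No binding to these stretches was measured. No promoter entry was used for Parp14, Zbp1, Mx2, Parp9, Mx1, Iigp1, Dhx58, Oas2, Usp18 and Rtp4.

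Depth was 15447918 to 28995834 reads per library, lowest in lung metastasis 3, and the lowest read count of any of the 38 genes in any library was 18. The tissue labels were checked against marker genes. Summed lung epithelial markers, surfactant genes among them, ran from 7407 to 34057 in metastases and from 11.9 to 26.0 in primary tumours. Keratins and other tumour epithelial markers summed to 763 to 3013 in metastases and 1302 to 2608 in primary tumours. The markers of this list did not move together. Krt19 ran from 76.0 to 188 in metastases and from 8.77 to 22.2 in primary tumours. Epcam ran from 30.2 to 109 in metastases and from 89.2 to 180 in primary tumours. Lung metastasis 3 stood apart from the other metastases, with the highest lung epithelial (34057), neutrophil (28412) and endothelial (2414) sums. Primary tumour 2 stood apart from the other primary tumours, with the lowest fibroblast (737), macrophage (1373) and tumour epithelial (1302) sums and the highest neutrophil (1157) and endothelial (733) sums. Values below are normalised read counts, log2 changes are lung metastasis over primary tumour on log2(value + 1), and adjusted p-values are from limma with Benjamini-Hochberg adjustment over all genes tested.

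None of the 38 interferon-stimulated genes passed the test between lung metastases and primary tumours, whereas 9.13% of all genes tested did, 7.18% higher and 1.96% lower in metastases. The log2 change was above 0 for 28 of the 38 genes and below 0 for 10, with a median of 0.19, beside a median of −0.06 over all genes, of which 45.1% were above 0. At an unadjusted p under 0.05 there were 4 genes, Oas3, Ddx58, Oas2 and Ifit3, all higher in metastases, against 23% of all genes in either direction and 13.9% higher. edgeR on the recovered reads called 0 of the 38 (7.5% of all genes), DESeq2 called 1, Oas3 (14.3% of all genes), and limma with the mouse as a block called 0 (7.94% of all genes). On simulated counts DESeq2 made more false calls than limma or edgeR. Those counts had the same dispersion for every gene and no outlying library, so they do not settle the Oas3 call. Without lung metastasis 3 no gene of the 38 was called (11.1% of all genes), and the median log2 change was 0.19 for the 38 genes and −0.02 for all genes. Without primary tumour 2 the call was Oas3 alone (7.69% of all genes), and the median was 0.32 for the 38 genes and −0.05 for all genes. The 95% interval of the log2 change lay within −1 and 1 for 17 of the 38 genes, reached above 1 for 17 and reached below −1 for 5, so larger differences remain within the error for many of them.

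A pair of libraries, 1 of each tissue, held most of the extreme values of the 38 genes. Lung metastasis 1 held the highest of the 8 values for 22 of the 38 genes, and it was the highest library for 6.29% of all genes. Primary tumour 3 held the lowest value for 31 of the 38, and it was the lowest library for 7.68% of all genes. Among the primary tumours alone, number 3 was lowest for 36 of the 38. Without lung metastasis 1 the median log2 change of the 38 genes was −0.05, with 17 above 0, and that of all genes −0.07. Without primary tumour 3 it was −0.12 for the 38 genes, with 12 above 0, and −0.06 for all genes.

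**Figure D1:**
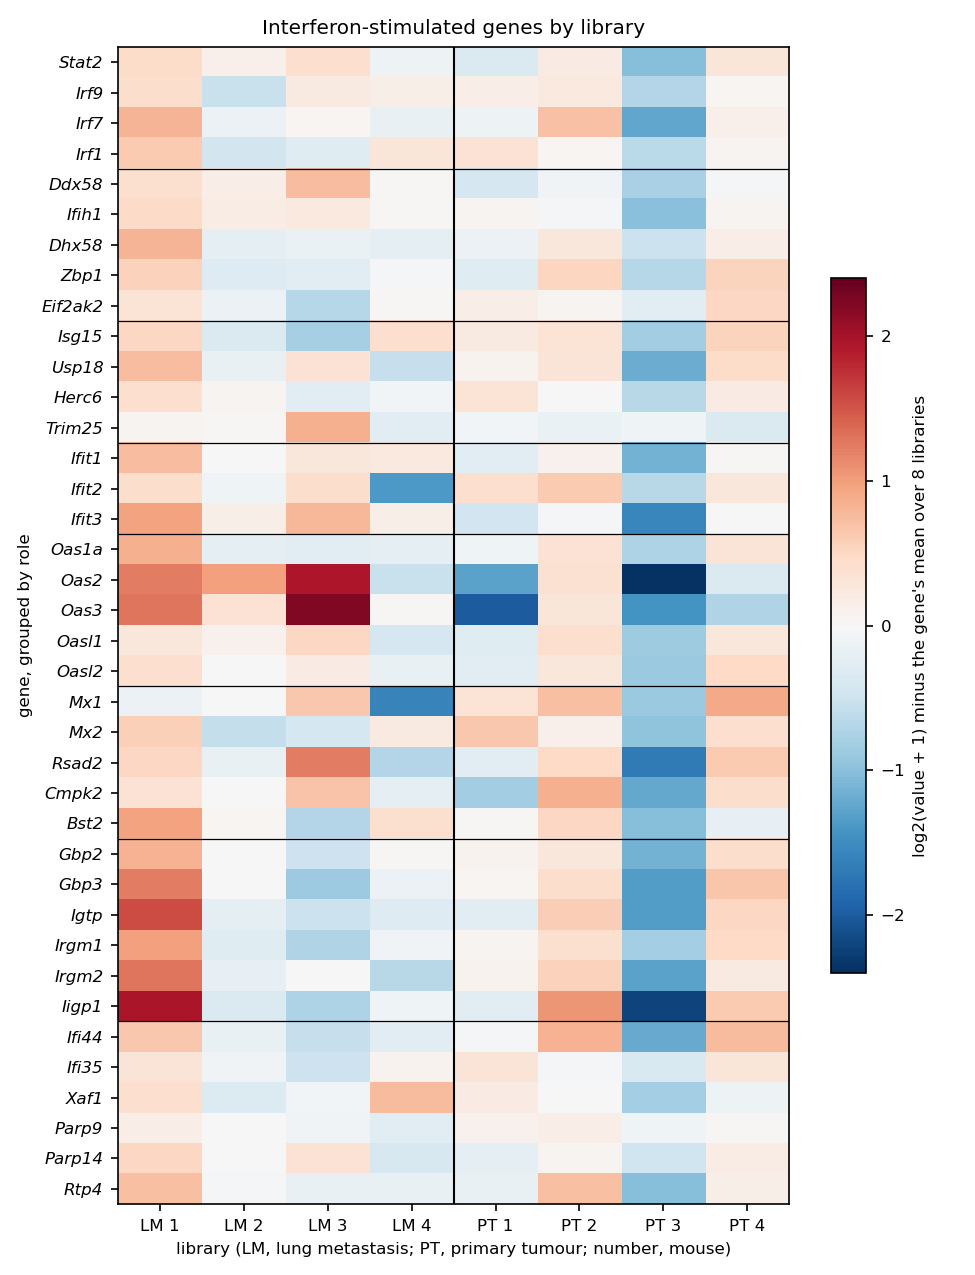
Each row is 1 of the 38 genes, grouped by role, and each column 1 library, with lung metastases left of primary tumours. Colour gives log2(value + 1) minus the gene's mean over the 8 libraries. Primary tumour 3 is the lowest library for 31 genes and lung metastasis 1 the highest for 22.

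The factors that carry the interferon signal to DNA come first. Stat2, a subunit of the ISRE-binding complex, had 66.4, 52.7, 64.7 and 44.6 in metastases 1 to 4, against 38.1, 55.3, 23.4 and 59.8 in primary tumours 1 to 4. The groups overlapped, and primary tumour 3 was the lowest library (log2 change 0.43, SE 0.29, adjusted p = 0.401). Irf7, which amplifies type I interferon production, had 67.8, 34.1, 38.9 and 33.4 in metastases, against 34.7, 62.4, 15.4 and 41.5 in primary tumours. Metastasis 1 and primary tumour 2 were the high libraries, 1 in each tissue (log2 change 0.27, SE 0.39, adjusted p = 0.716). Irf1, a transcription factor induced early by interferon gamma, had 353, 167, 186 and 280.1 in metastases, against 290.4, 234, 146 and 239 in primary tumours. Its groups overlapped across most of their range (log2 change 0.09, SE 0.28, adjusted p = 0.873). Irf9, the DNA-binding subunit beside STAT2, ran from 41.9 to 82.6 in metastases and from 37.3 to 72.2 in primary tumours.

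Among the sensors of foreign nucleic acid, Ddx58, which encodes the RNA helicase RIG-I, had 64.5, 54.8, 82.8 and 49.9 in metastases, against 37.2, 46.1, 28.3 and 48.2 in primary tumours. Every metastasis was above every primary tumour, though metastasis 4 and primary tumour 4 were close. It averaged 63.0 ± 14.6 in metastases and 39.9 ± 9.11 in primary tumours (SD, n = 4 each), and the log2 change of 0.65 (SE 0.23) did not pass the test (adjusted p = 0.112). Ifih1, which encodes the long-RNA sensor MDA5, had 55.9, 45.5, 47.6 and 40.8 in metastases, against 42.4, 39.3, 19.6 and 42.0 in primary tumours. Primary tumour 3 was far below the other primary tumours, and the groups overlapped (log2 change 0.45, SE 0.26, adjusted p = 0.327). Eif2ak2, the RNA-activated kinase PKR that halts translation, had 98.1, 70.9, 48.3 and 79.4 in metastases, against 87.8, 82.1, 65.6 and 110.3 in primary tumours. Here metastasis 3, and not primary tumour 3, was the lowest library (log2 change −0.24, SE 0.24, adjusted p = 0.582). Dhx58, a RIG-I relative that tunes the other helicases, ran from 12.1 to 25.6 in metastases and from 9.68 to 17.3 in primary tumours. Zbp1, a sensor of Z-form nucleic acid, ran from 24.6 to 45.4 in metastases and from 18.6 to 44.8 in primary tumours.

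Isg15 encodes a ubiquitin-like protein that is attached to other proteins. It had 64.7, 35.6, 26.1 and 60.7 in metastases, against 53.5, 57.6, 25.3 and 66.8 in primary tumours. Its lowest values were both from mouse 3, and the groups overlapped almost completely (log2 change −0.13, 95% interval −0.92 to 0.67, adjusted p = 0.863). Usp18, the protease that removes ISG15 and dampens receptor signalling, had 28.0, 14.5, 21.2 and 10.8 in metastases, against 17.5, 20.7, 6.61 and 22.6 in primary tumours. Each tissue held both high and low libraries (log2 change 0.18, SE 0.40, adjusted p = 0.827). Trim25, a ubiquitin ligase that activates RIG-I, had 136, 132, 236 and 109 in metastases, against 124, 116, 120.1 and 101 in primary tumours. Metastasis 3 alone was far above the rest (log2 change 0.35, SE 0.23, adjusted p = 0.398). Herc6, the ligase that attaches ISG15 in mice, ran from 37.5 to 59.7 in metastases and from 27.8 to 57.0 in primary tumours.

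The IFIT genes encode proteins that bind viral RNA. Ifit3 had 34.7, 19.2, 30.8 and 19.2 in metastases, against 12.3, 16.6, 5.16 and 17.4 in primary tumours. All 4 metastases were above all 4 primary tumours, by a small margin for numbers 2 and 4. It averaged 26.0 ± 7.96 in metastases and 12.9 ± 5.61 in primary tumours (SD, n = 4 each), a ratio of 2.02, and did not pass the test (log2 change 1.03, SE 0.37, adjusted p = 0.124). Ifit1 had 54.3, 31.9, 38.9 and 37.5 in metastases, against 26.7, 34.2, 14.0 and 32.8 in primary tumours. Only metastasis 2 lay within the range of the primary tumours (log2 change 0.63, SE 0.29, adjusted p = 0.232). Ifit2 had 30.1, 20.8, 30.4 and 7.90 in metastases, against 29.9, 34.7, 13.6 and 27.3 in primary tumours. Metastasis 4 held its lowest value, so its order of libraries was unlike that of Ifit1 and Ifit3 (log2 change −0.32, SE 0.43, adjusted p = 0.695). Ifit3 has a near-identical copy in the mouse genome, and reads may be split between the copies.

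The OAS proteins make short adenylate chains that activate the antiviral nuclease RNase L, and Oas3 and Oas2 showed the widest differences between the tissues. Oas3 had 31.4, 15.8, 60.6 and 12.5 in metastases, against 2.30, 15.2, 3.88 and 7.01 in primary tumours. The groups touched through primary tumour 2, which lay above metastasis 4. Oas3 averaged 30.1 ± 21.9 in metastases and 7.10 ± 5.76 in primary tumours (SD, n = 4 each), a ratio of 4.23, with a log2 change of 1.94 (SE 0.57, 95% interval 0.68 to 3.20) and an adjusted p of 0.061. Across 16 alternative settings its adjusted p ran from 0.00996 to 0.168, and it passed with DESeq2 (0.00996), with array weights (0.0126), without lung metastasis 4 (0.0361) and without primary tumour 2 (0.0275). Array weights called 16.3% of all genes, and leaving out lung metastasis 4 called 11.4%. The Oas3 ratio of means was 2.80 without lung metastasis 3 and 6.84 without primary tumour 2, and its log2 change ran from 1.52 to 2.36 as single libraries were left out. Oas2 had 18.5, 15.5, 31.0 and 4.75 in metastases, against 2.42, 9.78, 0.607 and 5.53 in primary tumours. Metastasis 4 lay inside the range of the primary tumours, and the other metastases were above it. Oas2 averaged 17.4 ± 10.8 in metastases and 4.59 ± 4.02 in primary tumours (SD, n = 4 each), a ratio of 3.80, or 6.11 without primary tumour 2 (log2 change 1.81, SE 0.64, adjusted p = 0.116), and it passed with array weights (0.0337) and without lung metastasis 4 (0.0360). In mouse 3 the metastasis held 15.6 times the primary tumour's Oas3 and 51.1 times its Oas2, while in mouse 2 the ratios were 1.04 and 1.58. The other members of the family were close between tissues: Oas1a ran from 17.4 to 38.7 in metastases and from 12.2 to 26.9 in primary tumours, and the OAS-like genes Oasl1 and Oasl2 had log2 changes of 0.23 and 0.20. Oas1a has close copies beside it, and its reads may be split.

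**Figure D2:**
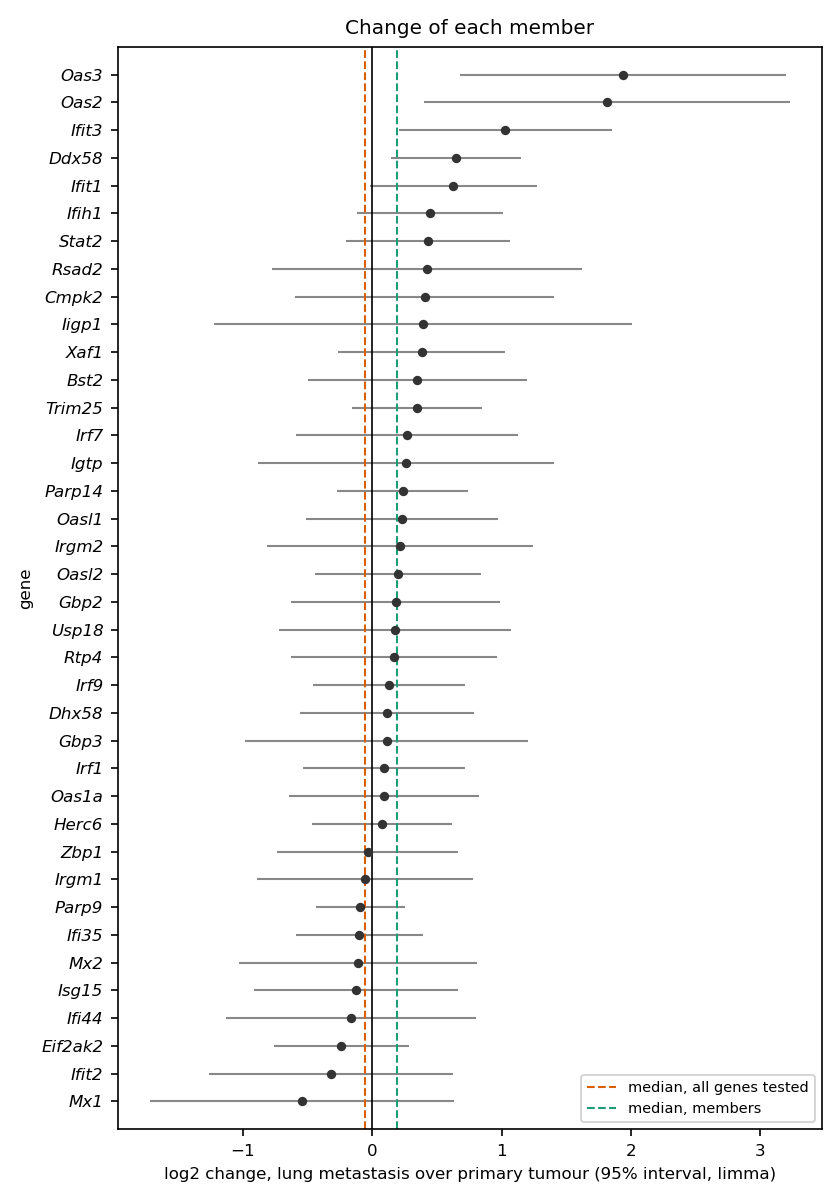
Log2 change of lung metastasis over primary tumour for each of the 38 genes, with its 95% interval from limma, ordered by the log2 change. No gene passed an adjusted p under 0.05, and Oas3 (1.94) and Oas2 (1.81) had the largest values.

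**Figure D3:**
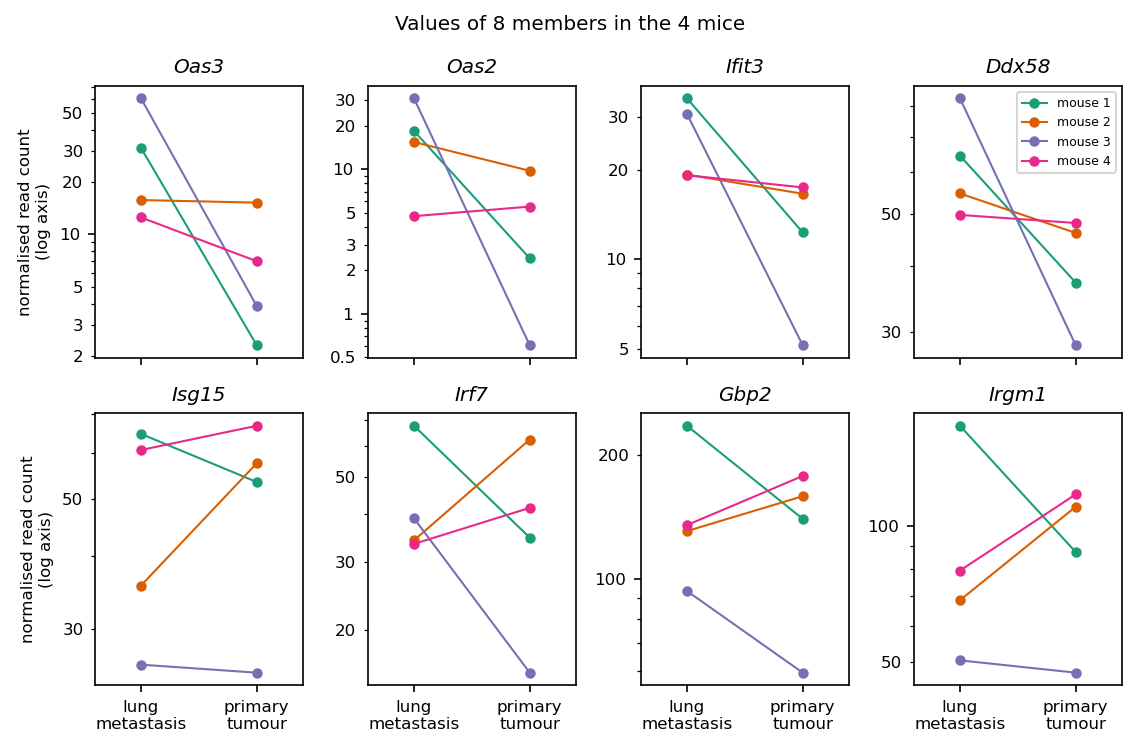
Normalised read counts (log axis) of 8 genes in the lung metastasis, left, and the primary tumour, right, with a line for each of the 4 mice. Ddx58 and Ifit3 groups do not overlap, while Isg15, Irf7, Gbp2 and Irgm1 lines cross.

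Mx1 encodes a dynamin-like GTPase that blocks influenza virus. It had 4.67, 5.27, 8.79 and 1.05 in metastases, against 6.87, 9.35, 2.36 and 10.8 in primary tumours. Metastasis 4 was the lowest library and primary tumour 4 the highest, both from the same mouse (log2 change −0.54, SE 0.53, adjusted p = 0.573). Its relative Mx2 ran from 2.56 to 6.84 in metastases and from 1.72 to 7.31 in primary tumours. Rsad2, which encodes viperin, an enzyme that makes a chain-terminating nucleotide, had 31.3, 19.1, 52.6 and 12.98 in metastases, against 18.2, 30.6, 6.03 and 34.3 in primary tumours. Its neighbour Cmpk2, a mitochondrial nucleotide kinase, had 15.7, 12.3, 20.3 and 10.2 in metastases, against 6.397, 22.8, 4.62 and 16.6 in primary tumours. Both genes were higher in the metastasis of mice 1 and 3 and in the primary tumour of mice 2 and 4, and their log2 changes were 0.42 (SE 0.54, adjusted p = 0.678) for Rsad2 and 0.40 (SE 0.45, adjusted p = 0.631) for Cmpk2. Bst2, which encodes tetherin, a protein that holds budding virus at the cell surface, had 333, 176, 103 and 221 in metastases, against 172, 241, 82.7 and 148 in primary tumours. Metastasis 1 was highest and primary tumour 3 lowest (log2 change 0.35, SE 0.38, adjusted p = 0.621).

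The guanylate-binding proteins and immunity-related GTPases attack the vacuoles of intracellular microbes and are known as strong targets of interferon gamma. Gbp2 had 235, 131, 93.6 and 135 in metastases, against 139.8, 159, 59.4 and 178 in primary tumours. Irgm1, a regulator of the other immunity-related GTPases, had 166, 68.3, 50.3 and 79.5 in metastases, against 87.4, 110.1, 47.2 and 117 in primary tumours. In both genes metastasis 1 was highest, primary tumour 3 lowest, and the other libraries were mixed, with log2 changes of 0.18 (SE 0.36, adjusted p = 0.803) for Gbp2 and −0.06 (SE 0.38, adjusted p = 0.946) for Irgm1. Igtp, whose promoter stretch is printed above, had 175, 50.1, 40.5 and 47.0 in metastases, against 48.3, 88.5, 22.4 and 83.0 in primary tumours. Iigp1, an effector that lyses the vacuole, had 241, 47.8, 36.4 and 56.8 in metastases, against 51.3, 129, 12.2 and 94.96 in primary tumours. The highest Iigp1 value was 19.7 times the lowest, and as with Igtp a single metastasis stood above all other libraries. Iigp1 has close copies, and its reads may be split. Gbp3 ran from 33.7 to 149 in metastases and from 24.0 to 99.5 in primary tumours, while Irgm2 had 119.6, 42.0, 48.9 and 30.0 in metastases, against 51.1, 71.9, 19.3 and 56.5 in primary tumours. All 6 of these GTPase genes were higher in the metastasis of mice 1 and 3 and lower in the metastasis of mice 2 and 4.

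Of the remaining genes, Xaf1, which counters an inhibitor of apoptosis, had 42.2, 24.97, 30.3 and 54.0 in metastases, against 36.3, 31.5, 17.5 and 29.0 in primary tumours. Metastasis 4 was its highest library, which held for none of the other 37 genes (log2 change 0.38, SE 0.29, adjusted p = 0.472). Parp14, an ADP-ribosyltransferase, had 126, 89.4, 114 and 67.3 in metastases, against 75.9, 92.5, 63.2 and 100.5 in primary tumours. Its groups overlapped, with the low end held by primary tumour 3 and metastasis 4 (log2 change 0.24, SE 0.23, adjusted p = 0.571). Parp9, of the same family, ran from 52.9 to 71.6 in metastases and from 58.9 to 71.2 in primary tumours. Of the 38 genes it differed least among the primary tumours, with a highest value 1.21 times the lowest. Ifi35 ran from 40.8 to 72.4 in metastases and from 45.2 to 72.2 in primary tumours. Ifi44 ran from 25.5 to 59.4 in metastases and from 15.6 to 68.3 in primary tumours. Rtp4, a receptor chaperone, ran from 24.998 to 47.2 in metastases and from 13.5 to 47.7 in primary tumours. These 4 genes had log2 changes between −0.17 and 0.17.

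Set side by side within each mouse, the direction of most genes differed between mice. Each mouse gave 1 library per tissue, and the 38 genes are not independent replicates of a mouse. Mice 1 and 3 hold lung metastasis 1 and primary tumour 3, the libraries with most of the extreme values. In mouse 1 the metastasis was above the primary tumour for 36 of the 38 genes, with a median log2 difference of 0.75. In mouse 3 the count was again 36 of 38, with a median of 0.89. In mouse 2 only 7 of the 38 were higher in the metastasis (median −0.47), and in mouse 4 only 9 (median −0.38). Over all genes tested, 47.0% to 52.1% were higher in the metastasis of a given mouse, with medians between −0.08 and 0.03. The order of mice 1 and 3 above, 2 and 4 below held for 22 of the 38 genes and for 6.42% of all genes, a pattern named after the values were seen and given here with no test. Higher in the metastasis of all 4 mice were 4 genes, Oas3, Ddx58, Ifit3 and Trim25, against 16.6% of all genes. Non-overlapping groups were found for 2 of 38, Ddx58 and Ifit3, against 17.9% of all genes.

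**Figure D4:**
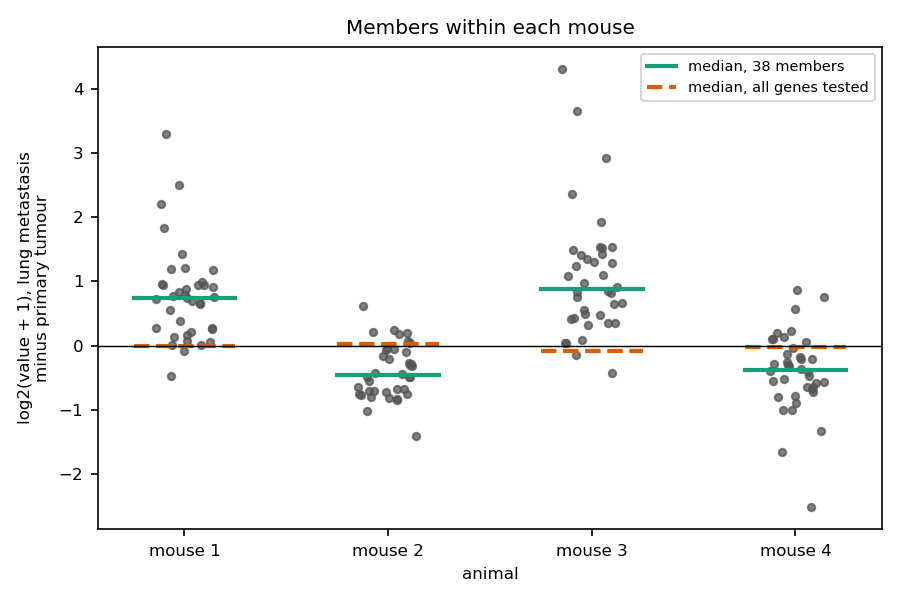
Log2 difference of lung metastasis minus primary tumour within each mouse, 1 point per gene, for the 38 genes. Points of mice 1 and 3 lie mostly above 0 (36 of 38 in each), those of mice 2 and 4 mostly below (7 and 9 of 38 above).

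The primary tumours differed among themselves in these genes mainly through number 3. The log2 range over the 4 primary tumours had a median of 1.34 for the 38 genes and 0.57 for all genes, and it exceeded 1 for 29 of the 38, against 21.6% of all genes. Without primary tumour 3 the median range was 0.46 for the 38 genes and 0.48 for all genes. Over the 4 metastases the median range was 1.08 for the 38 genes and 1.03 for all genes. Without metastasis 1 it was 0.70 for the 38 genes and 0.94 for all genes, and without metastasis 3 it was 0.91 for the 38 genes and 0.53 for all genes. Among the metastases, number 1 had the highest mean centred log2 level in 7 of the 8 role groups, and number 3 in the OAS family. The mean centred log2 level of the 6 GTPases was 1.31 in metastasis 1 and −0.55 in metastasis 3, while that of the 5 OAS genes was 0.81 in metastasis 1 and 0.92 in metastasis 3. In primary tumour 3 the means of all 8 role groups were below 0, from −1.36 for the GTPases to −0.65 for the sensors.

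**Figure D5:**
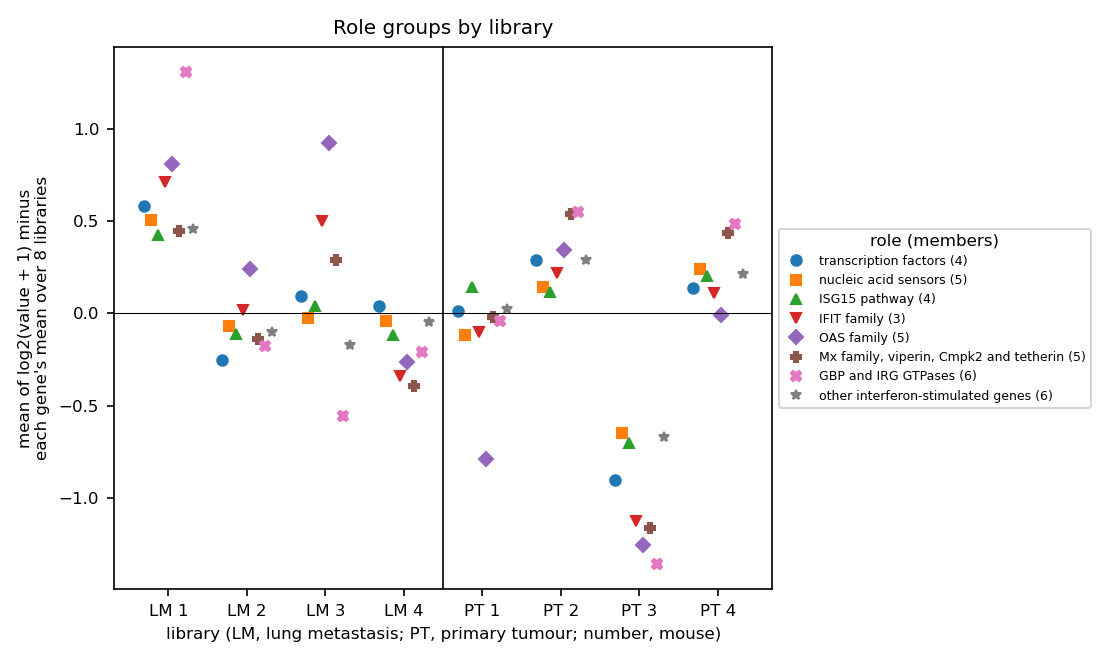
Mean over the genes of each role of log2(value + 1), centred on each gene's mean over 8 libraries, by library, with lung metastases left of primary tumours. In primary tumour 3 every role lies below 0, and the OAS family and the GTPases part in metastasis 3 (0.92 and −0.55).

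The other genes of the pathway were taken from lists of 50 genes, of which 31 were tested. Of these 1 passed the test, higher in metastases, and 30 did not, with a median log2 change of 0.18. Over all genes 7.18% were called higher, and the median was −0.06. The gene called was Myd88, the adaptor that links Toll-like receptors to interferon and cytokine induction, from a list of 12 tested induction genes. Myd88 had 88.2, 70.0, 131 and 66.1 in metastases, against 39.2, 56.6, 41.2 and 38.5 in primary tumours. All 4 metastases were above all 4 primary tumours, and Myd88 rose in metastases by a log2 change of 0.97 (SE 0.24, adjusted p = 0.0286). Its adjusted p ran from 0.00219 to 0.1004 over the alternatives, and the call was lost without metastasis 1 (0.0775) and without primary tumour 1 (0.0896), 3 (0.0838) or 4 (0.1004).

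None of the 6 receptor subunits passed the test. The type I receptor chain Ifnar1 ran from 65.0 to 106 in metastases and from 71.4 to 99.5 in primary tumours, and its partner Ifnar2 from 36.5 to 81.6 in metastases and from 36.3 to 48.0 in primary tumours. For the interferon gamma receptor, Ifngr1 ran from 110.1 to 195 in metastases and from 98.0 to 128 in primary tumours, and Ifngr2 from 95.5 to 127 in metastases and from 105 to 137 in primary tumours. The type III receptor chain Il28ra had 8.94, 6.15, 35.6 and 2.86 in metastases, against 1.67, 3.47, 5.09 and 3.80 in primary tumours, so metastasis 3 held the highest value (log2 change 1.21, SE 0.60, adjusted p = 0.26). Its shared partner Il10rb had a log2 change of 0.57 (SE 0.21, adjusted p = 0.124). None of the 18 ligand genes of the list was found by symbol among the 15465 genes with values. They were therefore not tested, and nothing is said here of their level.

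The interferon-induced chemokines had the same extreme libraries as most of the 38 genes. Cxcl9, a T cell attractant induced by interferon gamma, had 91.6, 12.9, 11.5 and 21.6 in metastases, against 10.3, 45.8, 1.55 and 35.6 in primary tumours. Cxcl10 ran from 11.5 to 33.4 in metastases and from 2.60 to 19.9 in primary tumours, and Cxcl11 from 5.25 to 21.4 in metastases and from 0.202 to 15.7 in primary tumours. In all 3 of these genes metastasis 1 was the highest library and primary tumour 3 the lowest. None of the 3 chemokines, the 4 JAK-STAT genes or the 6 inhibitors of the pathway passed the test.

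Markers of cells that could carry or evoke these transcripts also differed between libraries. The summed level of 12 T and NK cell markers was 89.0 in metastasis 1 and 31.9 to 61.4 in the other metastases, and 5.93 in primary tumour 3 against 18.5 to 26.2 in the other primary tumours. Metastasis 1 was thus the highest library and primary tumour 3 the lowest for this sum too, though not for every marker in it. Cd3d was highest in metastasis 3 at 17.8, and Cd4 was lowest in primary tumour 1 at 0. In metastases 2 of 11 tested markers rose. The macrophage sum ran from 771 to 1901 in metastases and from 1373 to 3111 in primary tumours, highest in primary tumour 3, and 1 of 10 tested markers fell, a call that was lost with the mouse as a block (0 of 10). Neutrophil markers summed to 7479 to 28412 in metastases and to 196 to 1157 in primary tumours, and 9 of 10 rose. Markers of plasmacytoid dendritic cells, known for high type I interferon output, summed to 301 to 618 in metastases and 413 to 595 in primary tumours. Of these markers 0 of 4 tested passed. Tcf4 made up most of each sum, at 264 to 569 in metastases and 373 to 555 in primary tumours. The sums therefore say little about the other markers of the list. Siglech had 5.26, 5.34, 1.01 and 5.13 in metastases, against 2.90, 0.907, 0.573 and 0.916 in primary tumours. Runx2 ran from 26.8 to 40.7 in metastases and from 33.4 to 39.1 in primary tumours. No marker of these lists was at 0 in all libraries of a group. The part of these cells in the values of the 38 genes was not tested.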

How the data were processed

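RNA sequencing of bulk tissue from 8 BC libraries was used. The labels' protocols name an RNeasy kit for extraction and a TruSeq kit for the libraries; strand is not described, so overlapping antisense genes cannot be told apart. Per the submitters' processing notes the build was mm9; aligner and counter: not given in the sources used here. The authors deposited a table of signal values, which are read counts over a scaled library size; column totals differ, so the values are not CPM in the strict sense, although the design had taken them as normalized values. All values (100%) were whole multiples of 1 read (0.0337 to 0.0676) within a tolerance of 0.05, which recovered the counts behind the deposited values. The 12 PDAC columns did not follow the gene column (Spearman's rho of BC and PDAC row means 0.102, across rows) and were not used.

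limma 3.58.1 (R 4.3.3) with an intensity trend was fitted to log2(value + 1) of the 14003 genes that reached a value of 1 in 4 or more libraries, by group; a gene was called at a Benjamini-Hochberg adjusted p under 0.05. This scale understates changes of low genes. edgeR 4.0.16 and DESeq2 1.42.0 on the recovered reads, other pseudocounts, no filter, median-ratio scaling, array weights, a mouse block and leaving out each library were alternatives. The scripts were tested on simulated data, on which DESeq2 made more false calls than limma or edgeR. The titles name the mouse, so numbers pair the tissues of 1 animal; deviations from the group means correlated at 0.096, −0.151, 0.035 and 0.007 for mice 1 to 4. The members and lists were chosen with earlier results of these data known. Values in every library are given for the 16 genes with the smallest p and for an anchor of each role; Igtp, Irgm2, Iigp1 and the chemokines were added after their values were seen. The values of 1 gene of the pathway lists are not reported here.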

Additional observations from a re-analysis of the deposited data

Results flagged for a closer look

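In 76 groups of 4 libraries, 1 per gene and tissue, 5 held a library far from the other 3 by Dixon's test, which chance gives in about 1 in 20 groups. Ifih1 was lowest in primary tumour 3 at 19.6, against 39.3 to 42.4 in the other primary tumours. The other 4 were all highest in lung metastasis 1: Dhx58 at 25.6, Oas1a at 38.7, Igtp at 175 and Rtp4 at 47.2. No explanation of these values was tested.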

How the results depend on the processing

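The count of the 38 genes called higher, 0, was also 0 with pseudocounts of 0.1 and 5, no filter, median-ratio scaling and edgeR; it was 2 with array weights (Oas3 and Oas2) and 1 with DESeq2 (Oas3), and 0 to 2 when a library was left out. None was called lower under any of the 16 alternatives. All genes called numbered 1279, against 2283 with array weights, 1985 with DESeq2 and 711 to 1603 when a library was left out. With the mouse as a replicate block, 0 of the 38 and 1112 of all genes (7.94%) were called. The block changed no call among the 31 pathway genes (Myd88, adjusted p = 0.0499) or the T and NK cell markers; it took macrophage markers called lower to 0 of 10 and neutrophil markers called higher to 10 of 10. The median log2 change of the 38 genes ran from −0.12 (without primary tumour 3) to 0.34 (without primary tumour 4). Its sign turned without lung metastasis 1 or primary tumour 3. The cause was not tested.

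The sign of the log2 change turned for Zbp1 with median-ratio scaling (0.00310) and array weights (0.0877), for Irgm1 with array weights (0.271), edgeR (0.0238) and DESeq2 (0.0408), and with array weights for Isg15 (0.0619), Mx2 (0.0308), Ifi44 (0.106), Ifi35 (0.0402) and Parp9 (0.00570). Leaving out single libraries turned it for 23 genes, whose lowest and highest log2 changes were −0.084 and 0.33 (Irf9), −0.10 and 0.55 (Irf7), −0.10 and 0.26 (Irf1), −0.14 and 0.22 (Dhx58), −0.27 and 0.14 (Zbp1), −0.42 and 0.12 (Isg15), −0.19 and 0.39 (Usp18), and −0.14 and 0.20 (Herc6). They were −0.59 and 0.094 (Ifit2), −0.18 and 0.22 (Oas1a), −0.011 and 0.41 (Oasl1), −0.060 and 0.39 (Oasl2), −0.45 and 0.085 (Mx2), −0.072 and 0.73 (Rsad2), −0.17 and 0.37 (Gbp2), and −0.32 and 0.42 (Gbp3). For the rest they were −0.22 and 0.50 (Igtp), −0.39 and 0.18 (Irgm1), −0.18 and 0.47 (Irgm2), −0.29 and 0.81 (Iigp1), −0.60 and 0.086 (Ifi44), −0.24 and 0.052 (Ifi35), and −0.15 and 0.44 (Rtp4). With 4 libraries a group, intervals were wide for genes that varied among libraries, at low and higher levels alike (SE 0.64 for Oas2 and 0.73 for Iigp1).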
